A study of Mus musculus with 12 samples.

Results

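The data on 10 genes of the inflammasome and interleukin-1 pathway came from mouse retinas after blockade of PDGFRβ, with and without minocycline. They were chosen by symbol and are Nlrp3, Pycard, Casp1, Casp4, Casp8, Gsdmd, Il1a, Il1b, Il18 and Il1rn. All 10 were rows of the gene count table, which held 50559 genes. Casp1 was also a qPCR target of the study.

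Wild-type C57BL6/J pups received 30 µg of APB5, a rat monoclonal antibody that blocks mouse PDGFRβ, or control IgG on day 1. The IgG+Mino and APB5+Mino groups were then injected daily with minocycline, a tetracycline antibiotic that dampens microglial activation, from day 5 to day 27 at a labelled dose of 45 mg/kg. Retinas of all 4 groups were collected on day 28, with 3 libraries per group, and bulk poly-A RNA was sequenced. The antibody was injected under the skin and was not targeted to the eye. The labels give no sex, and a whole retina mixes neurons, glia, vessels and immune cells.

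An inflammasome is a protein complex that assembles in a stressed or infected cell. A sensor such as NLRP3 binds the adaptor ASC, encoded by Pycard, which gathers and activates caspase-1. Caspase-1 matures interleukin-1β and interleukin-18 and cuts gasdermin D, whose fragments form pores in the cell membrane. In the retina, microglia and infiltrating macrophages are the usual source of these proteins. Transcription of several of the genes is raised by NF-κB during a priming step, and RNA levels do not measure the activity of the complex.

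The sensor and adaptor genes and the caspase genes next to each other on chromosome 9 are shown by their promoters. They were high together in 1 library below, but so were all 10 genes, so this does not set them apart. Every gene with a motif match is among those shown. On GRCm39, which is the build of the deposited counts, Casp1 lies at chr9:5298508-5307290 and Casp4 at chr9:5308828-5336783, both on the + strand, with 1537 bases between them. Il18 is on the same chromosome at chr9:50466081-50493633. Il1a at chr2:129140291-129152098 and Il1b at chr2:129206490-129213059 lie on the − strand with 54391 bases between them, and Il1rn is at chr2:24226865-24241506. Nlrp3 is at chr11:59432394-59457782, Pycard at chr7:127588558-127593039, Casp8 at chr1:58834375-58886665 and Gsdmd at chr15:75733974-75739257. The windows run from 250 bases before to 50 bases after an annotated RefSeq start, 5′ to 3′. They come from a GRCm38.p6 table, and each was found once in GRCm39 by exact match. Capitals mark matches to the NF-κB consensus in Casp4 and Nlrp3, and to the PU.1 core in Pycard. Of 4 motifs searched on both strands, Casp1 held none.
Casp1, chr9:5298267-5298566, + strand: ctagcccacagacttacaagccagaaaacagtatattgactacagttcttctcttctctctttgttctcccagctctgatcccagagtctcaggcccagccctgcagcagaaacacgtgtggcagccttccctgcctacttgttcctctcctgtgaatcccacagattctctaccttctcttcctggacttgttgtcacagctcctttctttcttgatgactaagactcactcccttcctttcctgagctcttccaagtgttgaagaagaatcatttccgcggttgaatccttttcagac
Casp4, chr9:5308599-5308898, + strand: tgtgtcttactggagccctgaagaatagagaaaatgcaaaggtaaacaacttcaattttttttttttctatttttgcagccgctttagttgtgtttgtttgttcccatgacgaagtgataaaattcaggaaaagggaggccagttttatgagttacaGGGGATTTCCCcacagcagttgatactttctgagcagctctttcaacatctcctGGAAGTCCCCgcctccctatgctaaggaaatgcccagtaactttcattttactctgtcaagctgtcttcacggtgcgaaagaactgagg
Nlrp3, chr11:59432145-59432444, + strand: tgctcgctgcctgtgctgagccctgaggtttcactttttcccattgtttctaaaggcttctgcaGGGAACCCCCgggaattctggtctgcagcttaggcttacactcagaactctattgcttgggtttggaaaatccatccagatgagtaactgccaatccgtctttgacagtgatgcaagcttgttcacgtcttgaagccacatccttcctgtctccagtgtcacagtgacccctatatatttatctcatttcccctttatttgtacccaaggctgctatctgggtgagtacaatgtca
Pycard, chr7:127592990-127593289, - strand: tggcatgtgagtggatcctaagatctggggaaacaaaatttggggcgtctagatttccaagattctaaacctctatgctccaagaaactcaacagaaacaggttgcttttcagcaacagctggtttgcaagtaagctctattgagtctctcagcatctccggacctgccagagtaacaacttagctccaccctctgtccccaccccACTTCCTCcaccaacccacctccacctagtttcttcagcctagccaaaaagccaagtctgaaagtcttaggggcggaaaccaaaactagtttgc
Matches to the NF-κB consensus lay at bases 158 to 168 of the Casp4 window, where forward and reverse matches overlap, and at bases 212 to 221. In the Nlrp3 window both strands matched at bases 65 to 74. Windows were found for 9 of the 10 genes, all but Gsdmd. These 9 genes had 13 windows, some of which overlap. The NF-κB consensus was in 3 of the 13, both of Casp4 and 1 of 2 of Nlrp3, and in 8.46% of all 32851 promoter windows. The other Nlrp3 window, chr11:59433262-59433561, held none of the motifs. The PU.1 core GAGGAAGT was in 1 of 13, against 3.2% of all windows. Neither the ISRE core nor the GAS motif TTCNNNGAA was in any of the 13, against 3.44% and 8.3% of all windows. These are letter matches in short windows and were not tested as binding sites.

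Total counts were 52740545 to 59411044 per library, and values below are CPM, read counts scaled to library size and by TMM factors. On the first principal component (38.5% of the variance), APB5 replicate 3 scored 126.9 and the remaining 11 libraries −53.8 to 25.6. Its summed rod markers were 11500 CPM, against 43940 to 66610 CPM elsewhere, and its summed microglial markers 287.6 CPM, against 31.4 to 92.8 CPM. Xist, the RNA that coats an inactive X, was counted 47210 times or more in all of IgG and in replicate 3 of both APB5 and APB5+Mino. In the other 7 libraries it was counted 38 times or fewer. The fitted differences that use APB5 replicate 3 are given below with and without it.

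Il18 had the highest level of the 10 genes per length of its exons in each group, and Casp8 came next. In IgG, Il18 stood at 2.53 ± 0.277 CPM per kilobase of exon, Casp8 at 0.334 ± 0.0703 and Gsdmd at 0.249 ± 0.0858 (SD, n = 3). These were followed by Pycard at 0.0739 ± 0.0467, Nlrp3 at 0.0645 ± 0.00725 and Casp1 at 0.0426 ± 0.0177 CPM per kilobase. The library ranges of the neighbours Casp8 and Gsdmd overlapped, as did those of Pycard and Nlrp3, while those of Nlrp3 and Casp1 did not. Il1b, Il1a, Casp4 and Il1rn were lowest, at 0.0380 ± 0.0236, 0.0216 ± 0.0103, 0.0166 ± 0.00345 and 0.00948 ± 0.00839 CPM per kilobase. In APB5, the mean of Casp1 stood at position 4 of this order, against position 6 in IgG, behind Il18, Casp8 and Gsdmd. Il18 overlaps Bco2 and Tex12 on the opposite strand, and Casp1, Pycard, Gsdmd, Il1a and Il1b overlap antisense gene models. Whether the counting used the strand is not stated, so reads of these genes and their antisense partners could be mixed.

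The sensor and adaptor genes were both low. Nlrp3, which senses potassium efflux and membrane damage, stood at 0.228, 0.281 and 0.276 CPM in IgG replicates 1 to 3 and at 0.328, 0.282 and 0.0548 CPM in IgG+Mino. It stood at 0.289, 0.128 and 1.28 CPM in APB5 and at 0.179, 0.0195 and 0.226 CPM in APB5+Mino. Apart from APB5 replicate 3, no group stood clear of the others. Pycard was at 0.158, 0.246 and 0.535 CPM in IgG and at 0.146, 0.211 and 0.365 CPM in IgG+Mino. It reached 0.488, 0.639 and 2.22 CPM in APB5, and 0.125, 0.312 and 0.264 CPM in APB5+Mino. All 3 APB5 libraries lay above all 3 APB5+Mino libraries, but APB5 replicate 1 lay below IgG replicate 3.

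Casp1, the protease that matures interleukin-1β, was the gene whose APB5 libraries stood furthest clear of IgG once APB5 replicate 3 was set aside. It was read 4, 9 and 10 times in the IgG libraries, 24, 26 and 231 times in APB5 and 8, 5 and 4 times in APB5+Mino. In IgG+Mino it was read 2, 3 and 1 times. As CPM, the APB5 libraries stood at 0.434, 0.474 and 3.51 and the IgG libraries at 0.0701, 0.158 and 0.173. The APB5 libraries were thus the 3 highest of all 12, and the IgG+Mino libraries the 3 lowest.

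Casp4, the protease that senses bacterial lipopolysaccharide in the cytosol, was near the limit of detection outside APB5 replicate 3. It had 5, 6 and 4 counts in IgG, 1, 1 and 0 in IgG+Mino, 3, 7 and 191 in APB5 and 1, 3 and 9 in APB5+Mino. A count of 3 equals 0.0456 to 0.0585 CPM in these libraries. Casp8, which starts apoptosis and can also cut gasdermin D, was at 0.911, 0.895 and 1.28 CPM in IgG and at 0.673, 0.581 and 1.11 CPM in IgG+Mino. It was at 1.03, 1.08 and 5.34 CPM in APB5 and at 0.607, 0.624 and 0.866 CPM in APB5+Mino. Replicates 1 and 2 of APB5 lay within the IgG range of Casp8, and above all APB5+Mino libraries.

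Gsdmd, the pore protein, was at 0.788, 0.474 and 0.984 CPM in IgG, at 1.32, 0.839 and 3.65 CPM in APB5 and at 0.571, 0.546 and 0.490 CPM in APB5+Mino. In IgG+Mino it was at 1.02, 0.581 and 0.639 CPM. The APB5+Mino libraries were below every APB5 and every IgG+Mino library, and inside the range of IgG.

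Of the cytokine genes, Il18 was readily measured and Il1a and Il1b were not. Il18 was at 7.74, 6.74 and 8.39 CPM in IgG and at 6.08, 6.09 and 4.71 CPM in IgG+Mino. It was at 5.74, 6.57 and 9.81 CPM in APB5 and at 5.28, 5.48 and 6.65 CPM in APB5+Mino. No IgG+Mino or APB5+Mino library reached the lowest IgG library. Il1b had 9, 2 and 6 counts in IgG, 1, 2 and 3 in IgG+Mino, 7, 2 and 148 in APB5 and 1, 7 and 4 in APB5+Mino. Il1a, an alarmin that acts without caspase-1, had 5, 2 and 6 counts in IgG, 1, 4 and 7 in IgG+Mino, 6, 6 and 65 in APB5 and 3, 0 and 6 in APB5+Mino. Il1rn, the secreted antagonist of the interleukin-1 receptor, had 6, 2 and 1 counts in IgG, 2, 2 and 0 in IgG+Mino, 3, 0 and 160 in APB5 and 0, 0 and 7 in APB5+Mino. For these 3 genes, APB5 replicates 1 and 2 counted 7 or fewer reads, no more than the highest library of the other groups.

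**Figure D1:**
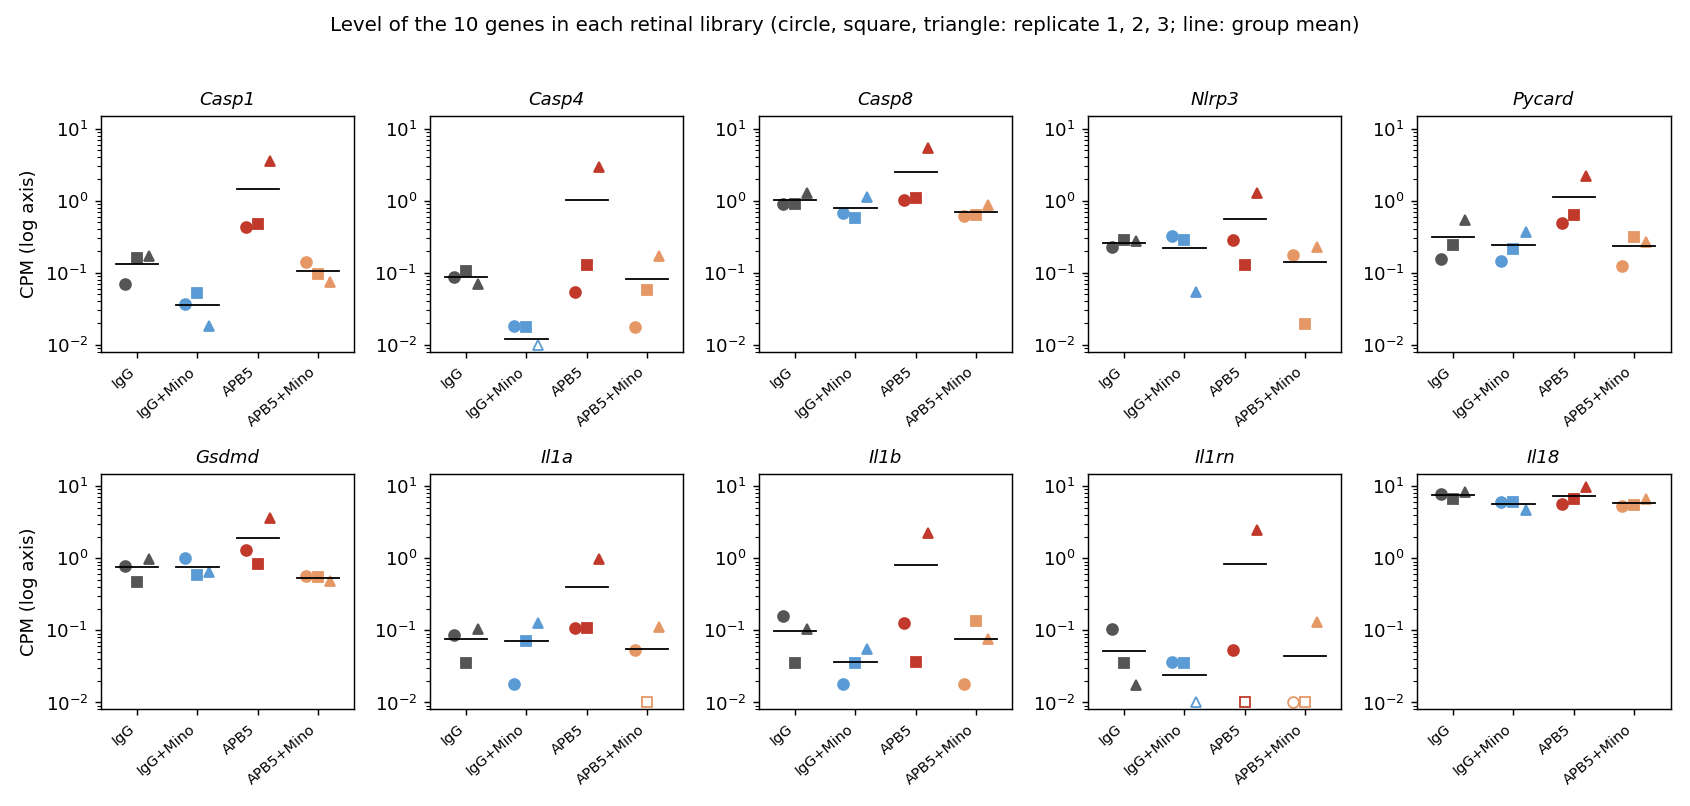
CPM of each gene on a log axis, by group, with 1 symbol per library and a line at the mean of each group; a library at 0 is drawn as an open symbol at the bottom. APB5 replicate 3, the red triangle, is the highest point in all 10 panels, and in the Casp1 panel the other 2 APB5 libraries also stand above every IgG library.

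APB5 replicate 3 was the highest of the 12 libraries for all 10 genes. Of 21890 genes with a mean of at least 0.1 CPM, 26.1% had their highest value in this library. It exceeded the next library by 18.5 times for Il1rn, 17.1 times for Casp4, 14.3 times for Il1b, 7.73 times for Il1a and 7.4 times for Casp1. The excess was 4.18 times for Casp8, 3.9 for Nlrp3, 3.48 for Pycard, 2.77 for Gsdmd and 1.17 for Il18. The antagonist, the cytokine pair Il1a and Il1b and Casp4, all rare elsewhere, thus had larger excesses than the sensor, the adaptor and the pore gene. The library held 98.2% of the Il1rn reads of its group, 95% of those of Casp4, 82.2% of those of Casp1 and 48.8% of those of Il18.

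**Figure D2:**
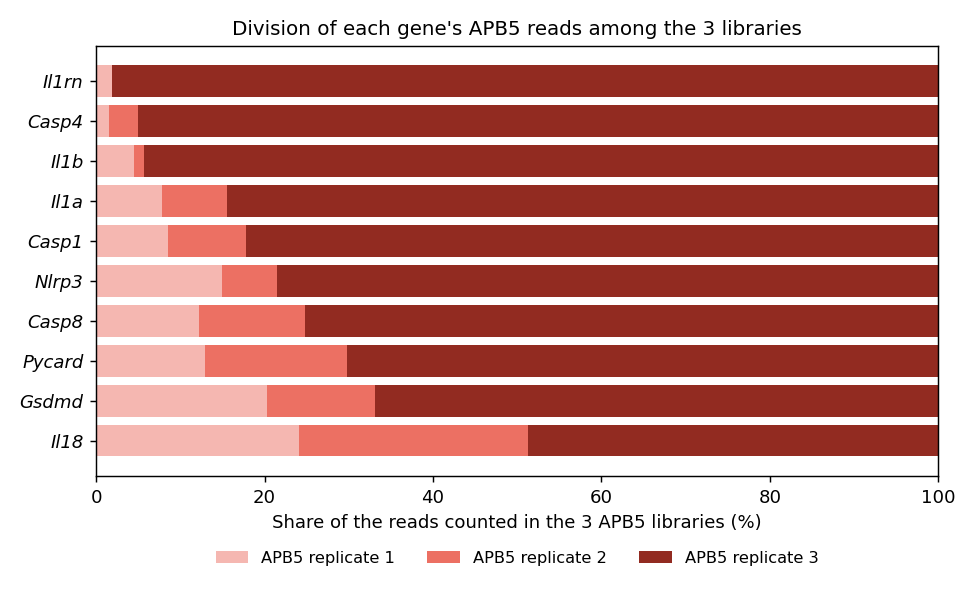
Percent of each gene's reads in the APB5 group that came from replicate 1, 2 or 3, as stacked bars ordered by the share of replicate 3. The dark share of replicate 3 runs from 48.8% for Il18 to 98.2% for Il1rn.

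Blockade of PDGFRβ without minocycline gave no call among the 10 genes. Of them, 6 had enough reads to be tested, namely Casp1, Pycard, Gsdmd, Casp8, Nlrp3 and Il18. Casp1 had enough only in fits that include APB5 libraries, the group where it was highest. Genes were called by edgeR's quasi-likelihood test where the Benjamini-Hochberg adjusted p did not exceed 0.05 and the log2 fold change was 1 or more in size, and 0% of the 20350 genes tested were called in each direction. Casp1 averaged 1.47 ± 1.77 CPM in APB5 and 0.134 ± 0.0555 CPM in IgG (SD, n = 3), a ratio of 11.03. Its log2 fold change was 3.18 with an SE of 0.88 (edgeR adjusted p = 0.664). Pycard differed by 1.74 with an SE of 0.67 and Gsdmd by 1.34 with an SE of 0.57, both at an adjusted p of 0.664 in edgeR. Values for Casp8 and Nlrp3 were 1.26 and 1.04, and for Il18 −0.04, with adjusted p-values of 0.671 to 0.969 in edgeR. At an unadjusted p under 0.05 stood 3 of the 6, Casp1, Pycard and Gsdmd, and 7.23% of all genes tested. DESeq2 called 1 of the 6, Casp1, with an adjusted p of 0.0231, and voom with quality weights called 0. Of the 20350 genes tested, DESeq2 called 79 higher and 8 lower, and voom 23 and 4.

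With APB5 replicate 3 left out, both remaining APB5 libraries still lay above all IgG libraries for Casp1, and the differences of Pycard, Gsdmd, Casp8 and Nlrp3 were smaller or of the other sign. Without this library the ratio of means for Casp1 was 3.40 and its log2 fold change 1.54. Those of Pycard and Gsdmd were 0.78 and 0.51, that of Casp8 0.04 and that of Nlrp3 −0.28. The adjusted p-values of the 6 genes in that edgeR fit were 0.724, for Casp1, to 0.992. None of the 6 was called, while 0.0868% of all genes were called higher and 0.0145% lower. That fit set APB5 libraries all low in Xist against IgG libraries all high, so the antibody and what Xist marks cannot be told apart in it. The groups did not overlap for 2 of the 10 genes, Casp1 and Il1a, both higher in APB5. Of the 6 tested this held for 1, Casp1, and 7.83% of all genes tested were separated upward in this way. For Il1a the separation was small, since 1 IgG library and 2 APB5 libraries each had 6 counts. The count stayed at 2 higher without APB5 replicate 3, and Il18 became lower without overlap, against 0 lower and 7.86% of all genes with it. Without it, 1 of the 6 tested genes separated in each direction, as did 11.5% and 12.5% of all genes upward and downward. An exact permutation test of 3 against 3 libraries cannot give a two-sided p below 0.1, which was the value for Casp1. Among libraries high in Xist, Casp1 stood at 3.51 CPM in the 1 APB5 library and at 0.0701 to 0.173 CPM in IgG, and no IgG library was low in Xist.

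The other 4 genes were too rare in this comparison for the filter, so only their counts are given. Summed over the group, Casp4 had 201 counts in APB5 and 15 in IgG, Il1b 157 and 17, Il1rn 163 and 9, and Il1a 77 and 13. With APB5 replicate 3 left out, the ratio of mean CPM was 1.04 for Casp4, 0.825 for Il1b, 0.516 for Il1rn and 1.44 for Il1a. In a fit with no count filter their adjusted p-values in edgeR were 0.654 to 0.712.

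In APB5+Mino against APB5 retinas, all 6 tested genes had negative log2 fold changes and none was called. This comparison uses the same APB5 libraries as the one above. Of 20281 genes tested, 0.838% were called higher and 0.819% lower. Casp1 averaged 0.105 ± 0.0344 CPM in APB5+Mino (SD, n = 3), and its log2 fold change was −3.43 with an SE of 0.90 (edgeR adjusted p = 0.0584). Gsdmd differed by −1.80 with an SE of 0.54 and Pycard by −2.11 with an SE of 0.64, at adjusted p-values of 0.0724 and 0.0739 in edgeR. Casp8 differed by −1.79, Nlrp3 by −1.78 and Il18 by −0.35, with adjusted p-values of 0.111, 0.194 and 0.317 in edgeR. The 4 genes Casp1, Gsdmd, Pycard and Casp8 had an unadjusted p under 0.05, as had 35.9% of all genes tested. DESeq2 called these 4 as lower, and voom with quality weights called 3 of them, all but Casp8. Of the 20281 genes tested, DESeq2 called 1007 lower and voom 745.

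The same 4 genes were lower in every APB5+Mino library than in any APB5 library. Of all genes tested, 23.3% were separated downward in this way. Without APB5 replicate 3 these 4 still separated, where 28.2% of all genes did. In the fit without that library, Casp1 was called, with a log2 fold change of −1.79 and an adjusted p of 0.014 in edgeR, as were 2.53% of all genes in the downward direction. The differences of Pycard and Gsdmd were then −1.16 and −0.97, with adjusted p-values of 0.0645 and 0.0407 in edgeR, and those of Casp8, Nlrp3 and Il18 −0.57, −0.46 and −0.09. Leaving out APB5 replicate 2 instead gave calls for Casp1 and Gsdmd, whereas leaving out APB5 replicate 1 or any APB5+Mino library gave none. In the fit without APB5 replicate 2, 1049 of 20832 genes tested were called lower. With the replicate number as a block, Casp1 was at −2.82 (adjusted p = 0.082 in edgeR) and the calls over all genes went from 170 higher and 166 lower to 0 and 0. Within the 3 same-numbered pairs, whose pairing the labels do not give, 8 of the 10 genes were lower in APB5+Mino in every pair. The others were Il1b and Il1rn, which were not tested here. Of all genes tested, 32.1% were lower in every pair. Among libraries low in Xist, Casp1 stood at 0.434 and 0.474 CPM in APB5 and at 0.143 and 0.0975 CPM in APB5+Mino, and among those high in Xist at 3.51 and 0.0753 CPM.

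**Figure D3:**
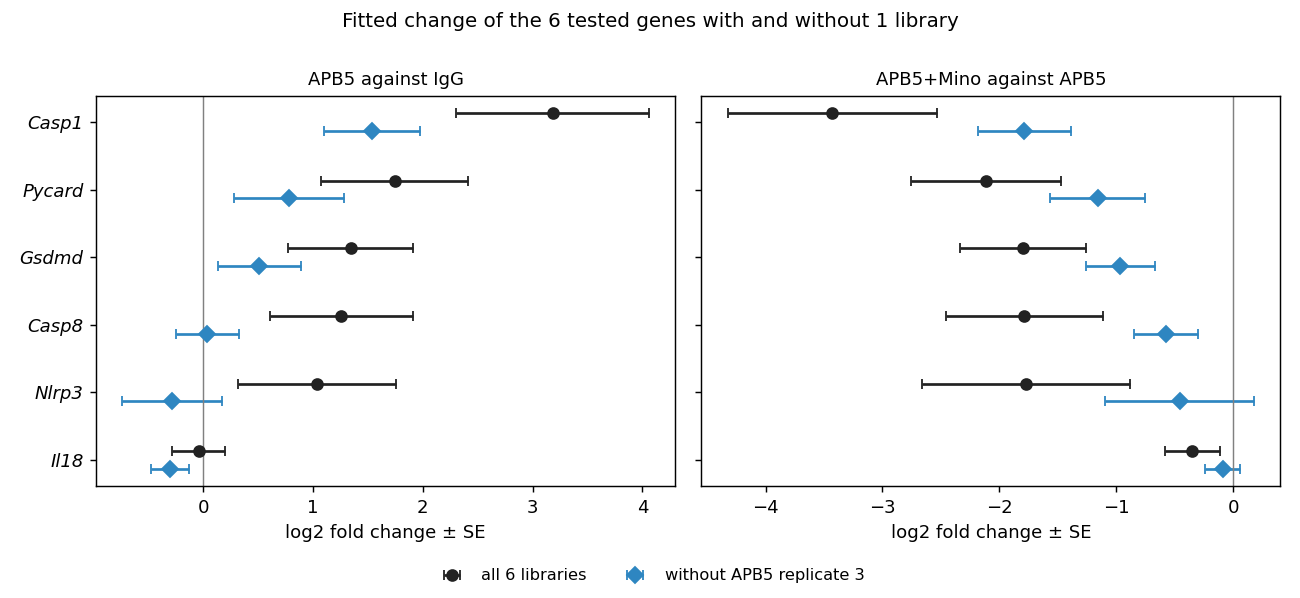
Log2 fold change with its SE for the 6 tested genes in 2 comparisons, from all 6 libraries (circles) and without APB5 replicate 3 (diamonds). Casp1 keeps the largest change of the 6 in both settings, at 3.18 and 1.54 for APB5 against IgG, while Casp8 moves from 1.26 to 0.04.

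Minocycline in control retinas gave no call among the 5 genes tested, while 0.0199% of all genes were called higher and 0.00993% lower. Il18 averaged 5.63 ± 0.793 CPM in IgG+Mino and 7.63 ± 0.833 CPM in IgG (SD, n = 3). Its log2 fold change was −0.43 with an SE of 0.17 (edgeR adjusted p = 0.585). The other 4 had adjusted p-values of 0.74 to 0.998 in edgeR. Il18 was the 1 gene of the 5 at an unadjusted p under 0.05, against 8.37% of genes tested, and DESeq2 and voom called 0. The groups were separated downward for 3 of the 10 genes, Il18, Casp1 and Casp4. Of the 5 tested this held for Il18 alone, against 7.48% of all genes tested. None was separated upward, against 6.88% of all genes. Casp1 summed to 6 counts in IgG+Mino and 23 in IgG, a ratio of 0.269 with a 95% exact interval of 0.0897 to 0.681. Casp4 summed to 2 and 15 counts, a ratio of 0.138 with an interval of 0.0153 to 0.592. These intervals cover counting error only. All 3 IgG libraries were high in Xist and all 3 IgG+Mino libraries low, so minocycline and what Xist marks cannot be told apart here.

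Between APB5+Mino and IgG+Mino, none of the 5 tested genes was called. These libraries also entered the 2 comparisons above. Of all genes, 0.878% were called higher and 0.349% lower. Of the 5, 0 were called by edgeR, DESeq2 or voom, and 0 stood at an unadjusted p under 0.05, against 29.3% of genes tested. Gsdmd was the 1 gene lower without overlap, at 0.536 ± 0.0419 against 0.747 ± 0.238 CPM (SD, n = 3) and a log2 fold change of −0.46 with an SE of 0.29 (adjusted p = 0.329 in edgeR). Such separation downward was seen for 17.2% of genes. Casp1, too rare to be tested here, was higher without overlap, with 17 counts against 6 and a ratio of 2.94 (95% exact interval 1.11 to 9.11). Of the 5 tested genes 0 separated upward, against 18% of all genes tested. Il18 stood at 5.80 ± 0.737 CPM and 5.63 ± 0.793 CPM.

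The change with minocycline was compared between APB5 and IgG retinas as an interaction over all 12 libraries. The IgG side of this contrast set libraries all high in Xist against libraries all low. Minocycline and what Xist marks therefore cannot be told apart in it. None of the 6 tested genes was called, while 0% of 21228 genes were called higher and 0.0141% lower. Gsdmd gave −1.79 with an SE of 0.67 on the log2 scale (edgeR adjusted p = 0.228). It alone was at an unadjusted p under 0.05, against 17.1% of genes tested, and DESeq2 and voom called 0. Casp1 gave −2.18 with an SE of 1.62 (adjusted p = 0.495 in edgeR). Without APB5 replicate 3 these became −0.98 and −0.57.

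Microglial markers were lowest in APB5+Mino and highest in APB5 replicate 3. The sum of 15 such markers was 57.9 to 92.8 CPM in IgG, 47.2 to 55.4 in IgG+Mino, 70.95 to 287.6 in APB5 and 31.4 to 33.8 in APB5+Mino, with none of the 15 at 0 in any library. APB5 replicates 1 and 2, at 72.55 and 70.95 CPM, lay inside the IgG range. In APB5 against IgG, 12 of the 15 had positive log2 fold changes, and 6 without APB5 replicate 3. The medians were 0.747 and −0.145, and 0 were called in either fit. In APB5+Mino against APB5, all 15 had negative log2 fold changes and 2 were called, Cx3cr1 and Fcrls, where 0.819% of all genes were called lower. With APB5 replicate 3 dropped, 7 of the 15 were called, against 2.53% of all genes. In a bulk sample, fewer cells of a type and less RNA per cell cannot be told apart. The 6 markers of reactive glia summed to 451 to 510 CPM in IgG, 698 and 736 in APB5 replicates 1 and 2, 4193 in APB5 replicate 3 and 429 to 469 in APB5+Mino. Neutrophil and monocyte markers reached 3.50 and 3.62 CPM in APB5 replicate 3 and were at or below 0.772 CPM in every other library, with up to 6 of 9 and 4 of 6 of them at 0. Of the neutrophil markers in APB5 replicate 3, S100a8 and S100a9 were at 1.73 and 1.46 CPM, most of the sum. Camp and Elane were at 0.0152 and 0.0304 CPM there. The 7 pigment epithelium markers summed to 673.6 CPM in APB5 replicate 3 and to 47.5 to 186.2 CPM elsewhere. T and NK cell markers summed to 2.57 CPM in that library and at most 1.10 CPM elsewhere, and those of cornea and conjunctiva to at most 6.77 CPM. Lens markers ran from 2.85 CPM in APB5 replicate 2 to 1594 CPM in IgG+Mino replicate 3. They summed to 577.5 CPM in IgG replicate 1 and to 52.5 CPM in APB5 replicate 3. The part of these cell types in the results was not tested.

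Relative to the microglial sum, the APB5 libraries stayed highest for Casp1, while APB5+Mino moved above IgG in the mean. Per 1000 CPM of microglial markers, Casp1 was at 1.21, 2.35 and 1.86 CPM in IgG and at 5.98, 6.69 and 12.2 CPM in APB5. It was at 4.22, 3.10 and 2.32 CPM in APB5+Mino and at 0.771, 0.954 and 0.331 CPM in IgG+Mino. The 3 APB5 libraries were thus the highest of the 12, and those of APB5+Mino overlapped IgG by 1 library. Pycard was at 6.72, 9 and 7.72 CPM per 1000 in APB5, above the 2.73 to 5.77 of IgG and within the 3.70 to 9.93 of APB5+Mino. Casp8 was at 14.2 to 18.5 in APB5 and 13.3 to 15.7 in IgG, and Gsdmd at 11.8 to 18.2 and 7.04 to 13.6. Il18 was at 34.1 in APB5 replicate 3, the lowest of the 12 libraries, and at 156.3 to 204.5 in APB5+Mino, the 3 highest.

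**Figure D4:**
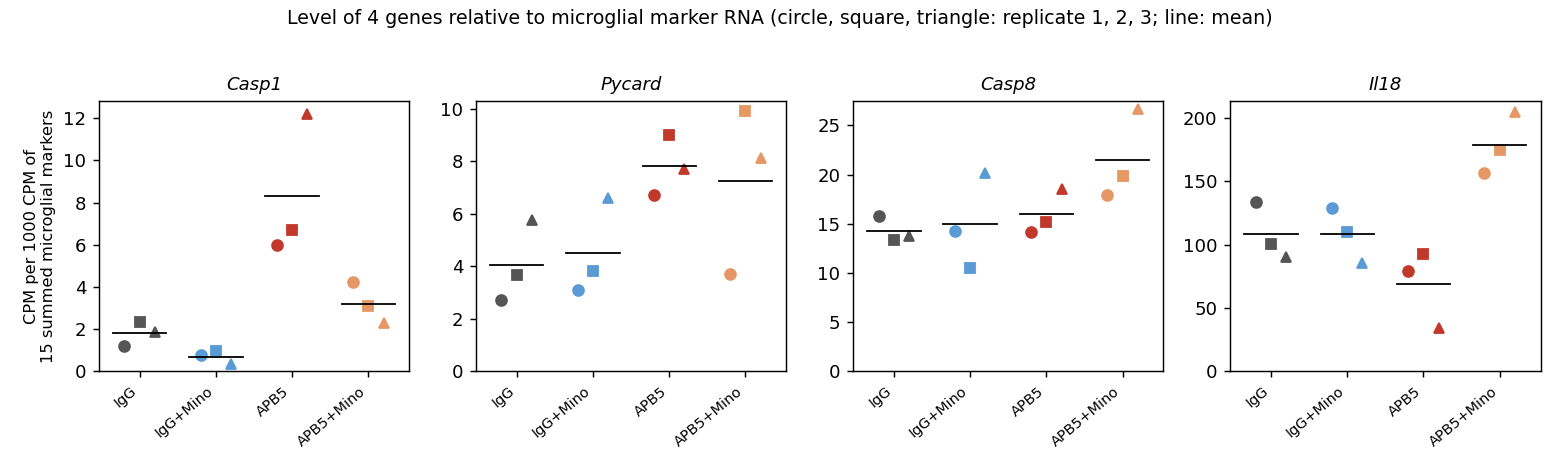
CPM of Casp1, Pycard, Casp8 and Il18 per 1000 CPM of 15 summed microglial markers, by group, with 1 symbol per library and a line at the mean. Casp1 stays highest in the 3 APB5 libraries, from 5.98 to 12.2, whereas Il18 is lowest in APB5 replicate 3 and highest in APB5+Mino.

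As a description over libraries, the levels of the tested genes were compared by rank. Spearman's rho between Casp8 and Pycard was 0.797 over the 12 libraries and 0.736 without APB5 replicate 3. For Casp1 it was 0.65 and 0.545 with Pycard, and 0.217 and −0.018 with Nlrp3. With the microglial sum, rho over 12 libraries ran from 0.545 for Nlrp3 to 0.748 for Casp8. Of all genes, those most like Casp1 were Stab1 (rho 0.965), a scavenger receptor of macrophages and sinusoidal endothelium, and Vwf (0.958), the von Willebrand factor of endothelial cells. Ang, Gm32577 and Tlr13 followed at 0.923 each, and all 5 stayed at 0.9 or above without APB5 replicate 3. These genes were picked for their high rho over the same libraries, so the values without that library are no separate check. The libraries share groups, so these values carry no test.

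The wider pathway was followed in 69 genes of 7 lists, of which 47 were tested in APB5 against IgG. Of the 47, 41 had a positive log2 fold change and 0 were called, and 14 were at an unadjusted p under 0.05 in edgeR, as were 7.23% of all genes. Their median was 0.37, against −0.0024 for all genes tested, and 16 separated upward, where 7.83% of all genes did. Without APB5 replicate 3 the median was 0.17, 34 of 47 were positive and 18 separated upward, against 11.5% of all genes. In APB5+Mino against APB5, 35 of 46 were lower with a median of −0.55, against −0.02 for all genes. There, 0 were called and 21 were at an unadjusted p under 0.05 in edgeR, as were 35.9% of all genes. Without APB5 replicate 3 the median was −0.08 and 26 of 46 were lower.

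Genes that interleukin-1 and NF-κB are known to induce differed most among the lists. Of 11, 8 were tested, 7 were positive in APB5 against IgG and the median was 2.89. The 1 negative gene was Tnfaip3, at −0.62 (adjusted p = 0.765 in edgeR), and Nfkbia stood at 0.065 (adjusted p = 0.911 in edgeR). Ccl2 passed the read filter with the APB5 libraries, where it was highest, and not in IgG+Mino against IgG. The medians thus include a gene admitted by the group where it is high. Icam1, which binds leukocytes to vessel walls, averaged 5.04 ± 3.75 CPM in APB5 and 1.14 ± 0.243 CPM in IgG (log2 fold change 2.12, SE 0.52, adjusted p = 0.664 in edgeR). Ptgs2, the inducible cyclooxygenase, averaged 7.06 ± 9.31 and 0.535 ± 0.0526 CPM (SD, n = 3, log2 fold change 3.65, adjusted p = 0.664 in edgeR). In APB5+Mino these were at 1.11 ± 0.412 and 0.404 ± 0.0546 CPM, and their adjusted p-values against APB5 were 0.0581 and 0.0598 in edgeR. In that comparison 7 of 8 were lower, with a median of −3.09. There, Tnfaip3 was 0.77 higher (adjusted p = 0.305 in edgeR) and Nfkbia was at −0.35. Without APB5 replicate 3 the medians were 1.32 and −1.11, Lcn2 was called higher in APB5 than IgG, and Cxcl1, Icam1 and Ptgs2 were called lower in APB5+Mino. In those fits 0.0868% of all genes were called higher and 2.53% lower. Tnfaip3 was then at −0.18 and 0.34, and Nfkbia at 0.18 and −0.46. Lcn2, Cxcl1, Tnfaip3, Nfkbia and Ccl2 were named after their values were seen.

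The medians of the other lists lay closer to that of all genes, and those of APB5 against IgG were smaller without APB5 replicate 3. Of 12 further sensors 4 were tested, with a median of 0.32, and 0.10 without that library. Naip5, which detects bacterial flagellin, gave 1.34 with and 0.84 without it, and Nlrp10 −0.98 and −0.71. Naip5 passed the read filter with the APB5 libraries, where it was highest, and not in IgG+Mino against IgG. Of 9 genes of priming and regulation 8 were tested, with medians of 0.65 and 0.31. P2rx7, the ATP-gated channel that triggers NLRP3, gave 2.75 and 1.07, and Gbp2, a guanylate-binding protein, 1.47 and 0.55. The 5 other caspases and pore proteins had medians of 0.55 and 0.19, with Casp12 at 2.63 and 0.95 and Ninj1, a protein of membrane rupture, at 1.12 and 0.44. Among the partners of caspase-8 the medians were 0.30 and 0.08. There, Mlkl, the pore protein of necroptosis, gave 0.97 and 0.09, and Zbp1, a nucleic acid sensor, turned from 1.20 to −0.12. The 6 tested ligands and receptors had medians of 0.34 and 0.18, with Il1r1, the signalling receptor of interleukin-1, at 1.23 and 0.54 and its accessory chain Il1rap at 0.35 and 0.19. Of the 11 genes of interleukin-1 receptor signalling, 11 were positive with a median of 0.33, and 9 with a median of 0.15 without that library. The NF-κB subunits gave 0.62 and 0.32 for Nfkb1 and 0.47 and 0.19 for Rela. The adjusted p-values of these named genes were 0.664 to 0.702 in the full edgeR fit and 0.724 to 0.988 once that library was dropped.

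With minocycline in APB5 retinas, 1 of the 46 pathway genes passed the adjusted p of 0.05, at a fold change too small for a call. Map3k7, the kinase TAK1, was 0.57 higher with an SE of 0.10 (adjusted p = 0.0461 in edgeR). By p, Map3k7 ranked 378 among the 20281 genes tested, and Fcrls at rank 695 also passed that limit. Map3k7 was 0.50 higher with APB5 replicate 3 left out. Casp12 was at −4.20, Txnip at −1.27 and Gbp3 at −1.43, with adjusted p-values of 0.052 to 0.0606 in edgeR. Without that library these became −2.50, −0.80 and −0.91, with adjusted p-values of 0.00497 to 0.0138 in edgeR, and Casp12 was called. The adaptor Myd88 was at −0.78 with and −0.42 without it, Zbp1 at −1.94 and −0.62, and Fadd at 0.36 and 0.42. Il33, an alarmin, was at −0.37 and −0.15 and Il1rap at −0.27 and −0.12. Against IgG+Mino, APB5+Mino was higher for Map3k7 by 0.40 (adjusted p = 0.0337 in edgeR) and Txnip, which binds NLRP3, stood at −0.67 (adjusted p = 0.0185 in edgeR). The reactive glia marker Gfap, named after its values were seen, ranked 1428 by p of 20049 genes there and also passed the limit. In that comparison 22 of 42 pathway genes were positive, with a median of 0.04. In IgG+Mino against IgG, 22 of 44 were positive, with a median of −0.0039, and 0 had an adjusted p of 0.05 or less in edgeR. There, 4 were at an unadjusted p under 0.05 in edgeR, as were 8.37% of all genes.

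**Figure D5:**
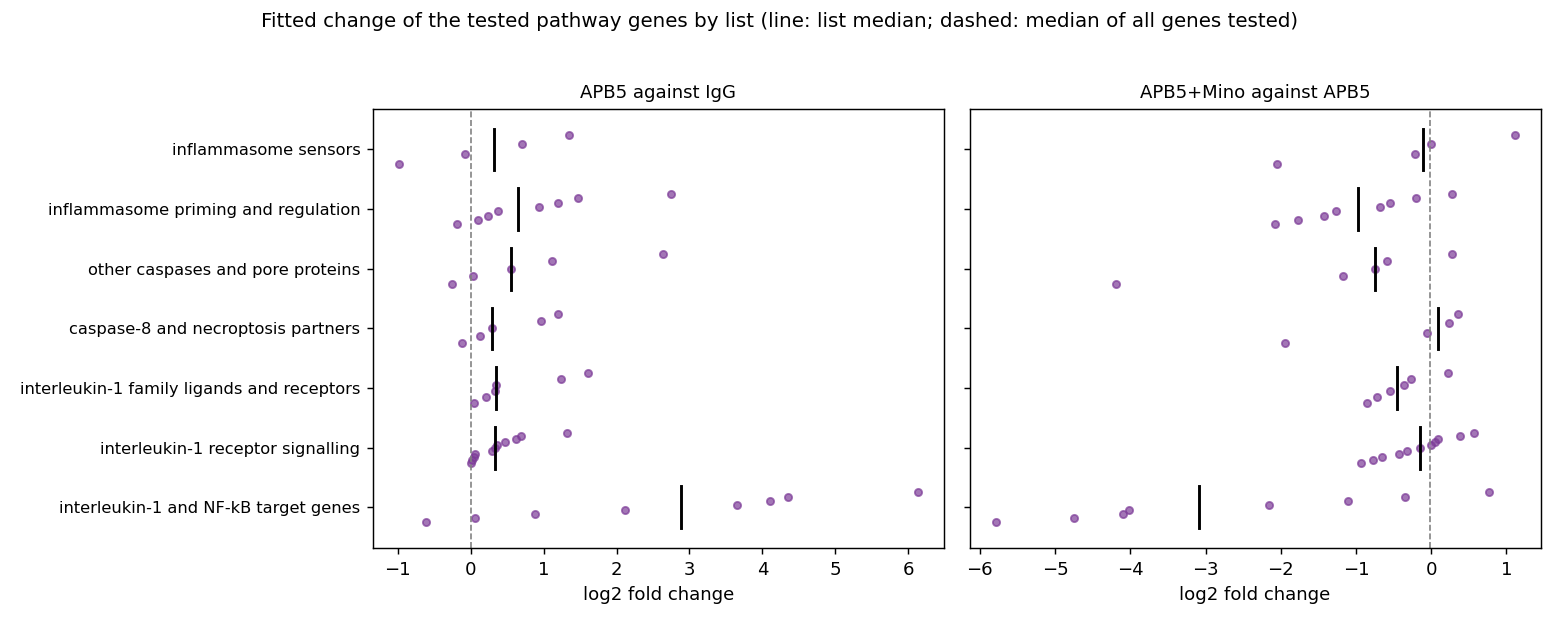
Log2 fold change of each tested pathway gene by list in 2 comparisons, with a line at the median of the list and a dashed line at the median of all genes tested. The list of interleukin-1 and NF-κB target genes lies furthest from the dashed line, with medians of 2.89 and −3.09. Rare genes could pass the read filter through the APB5 libraries alone.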

How the data were processed

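Retinal poly-A RNA of 12 libraries was sequenced as single reads on a stranded preparation. Per the labels and the submitters' processing notes, the authors used bcl2fastq 2.20 and DRAGEN (version not given in the sources used here) on mm39 with NCBI annotation. The deposited gene table holds raw counts per gene, with 3 columns repeating others and not used. The deposited transcript tables hold the authors' mean normalized count per group, a signal with no value per library. The authors' own fold changes and p-values were not used.

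Libraries were grouped by their labels. Nothing in the labels says what the replicate numbers mark. Counts were TMM-scaled and tested in edgeR 4.0.16 (R 4.3.3) by the quasi-likelihood test after filterByExpr, with only the groups compared in each fit, a prior count of 2 and Benjamini-Hochberg adjustment over all genes. SE is the log2 fold change divided by the root of F. The call limits were 0.05 for the adjusted p and 1 for the size of the log2 fold change. The scripts were tested on simulated data. DESeq2 1.42.0 and voom (limma 3.58.1), other scalings, filters, a replicate block, Xist as a covariate and leaving out each library were alternatives. Ratios of rare genes carry exact 95% intervals that cover counting error only. Same-numbered libraries of APB5 and APB5+Mino deviated together (correlations 0.134 to 0.182, against −0.157 to 0.0194 for others), so the numbers were taken to pair them. Differently numbered libraries reached 0.206 in APB5 against IgG and 0.2 in IgG+Mino against IgG. Replicate 3 was also the 1 library high in Xist in APB5 and in APB5+Mino, so the pairing is uncertain. The main fit has no block, and the blocked fit is an alternative.

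Members and lists were chosen with earlier results of these data known. Named pathway genes were those called or, where none was, the 2 of each list with the smallest p in a comparison. The value of 1 such gene is not reported here. Genes outside this rule are said to be named after their values were seen.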

Additional observations from a re-analysis of the deposited data

Results flagged for a closer look

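The authors' mean normalized counts of single transcripts were used in no comparison above. Transcripts with a mean of at least 10 in APB5 and under 1 in IgG, limits set after the values were seen, numbered 3 among the 10 genes. The Casp4 transcript NM_001379318.1 stood at 30.41 in APB5, the Casp8 transcript NM_001080126.1 at 44.49 and the Il1rn transcript NM_001039701.3 at 49.12. Their authors' means in IgG were 3.532e-05, 0.1835 and 1.794e-05. Another Casp8 transcript, NM_009812.2, stood at 28.9 in IgG and 0.1824 in APB5. In the gene counts, APB5 replicate 3 held 95% of the Casp4 reads of its group, 75.2% of those of Casp8 and 98.2% of those of Il1rn. The tables give no value per library, so the differences were not tested.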

How the results depend on the processing

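Of 433 alternative fits of single genes, 378 kept direction and side of the threshold, 25 passed it and 30 changed sign. In APB5 against IgG the number of the 10 genes called went from 0 to 1 in DESeq2 and to 4 with Xist as a covariate over all 12 libraries. In APB5+Mino against APB5 it went from 0 to 4 in DESeq2, 3 in voom with quality weights, 1 with no count filter, 4 with all 12 libraries in one fit, 4 with Xist, and 0 to 2 when 1 library was left out. In the interaction it went from 0 to 1 with Xist. The cause was not tested. Within a group, Xist ran from low to high only in APB5 and APB5+Mino, in both by replicate 3 alone. In each fit with Xist, its slope rests mainly on these libraries. The Xist term therefore cannot be told apart from what sets APB5 replicate 3 apart.

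Signs changed as follows in log2 fold change. In APB5 against IgG, Il18 was 0.017 by library size only and 0.25 with Xist, and Nlrp3 −0.087 in voom. In IgG+Mino against IgG, Gsdmd was −0.067 by library size only and −0.0053 with all 12 libraries, and Pycard 0.39 in voom. With Xist, Casp8, Nlrp3, Pycard and Il18 were there at 1.00, 1.45, 0.74 and 0.015. Since IgG was all high in Xist and IgG+Mino all low, the slope was carried over from the APB5 groups. These values are therefore extrapolated. In APB5+Mino against IgG+Mino, Nlrp3 was 0.065 in voom and Il18 −0.13 with Xist, and in the interaction 0.11 and −0.39. With 1 library left out, Il18 ran from −0.30 to 0.11 and Nlrp3 from −0.28 to 1.48 in APB5 against IgG. In IgG+Mino against IgG, Gsdmd ran from −0.27 to 0.24, Pycard from −0.70 to 0.23 and Nlrp3 from −0.53 to 0.20. In APB5+Mino against IgG+Mino, Casp8 ran from −0.35 to 0.14, Pycard from −0.29 to 0.31 and Il18 from −0.080 to 0.10, and in the interaction Il18 from −0.054 to 0.33.

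With the replicate block, 0 of the 10 genes were called in any comparison, as without it. Over all genes, calls in APB5 against IgG (0 higher and 0 lower) became 79 and 8 in DESeq2, 23 and 4 in voom, 1060 and 124 with Xist, and 18 and 3 without APB5 replicate 3. Those in APB5+Mino against APB5 (170 and 166) became 524 and 1007, 688 and 745, 665 and 1254, and 402 and 521. By library size only they were 0 and 5, and the median of all genes moved to −0.108. With no count filter they were 220 and 348, and with all 12 libraries in one fit 481 and 1142. In the interaction, 0 higher and 3 lower became 126 and 818 with Xist. Low counts of Casp4, Il1a, Il1b and Il1rn limit what can be seen of them.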
